A study of Homo sapiens and Mus musculus with 47 samples.

Results

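Small nucleolar RNA host genes are transcribed into spliced RNAs with little or no coding capacity whose introns carry small nucleolar RNAs (snoRNAs). The members described here are SNHG1, SNHG3, SNHG5, SNHG6, SNHG7, SNHG8, SNHG12, SNHG15, SNHG16 and GAS5, taken by gene name from every count table. The human tables held a row for 10 of these genes among 57820 genes, and the mouse tables for 9 among 55401, without a row named Snhg7. The counts came from 35 libraries of 4 established cell lines, HEK293T (human embryonic kidney), HCT116 (human colorectal cancer), NIH3T3 (mouse embryonic fibroblast) and Neuro-2a (mouse neuroblastoma).

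The snoRNAs themselves stay in the nucleus. After splicing, the excised introns are trimmed around them, and the mature snoRNAs guide 2′-O-methylation (box C/D class) or pseudouridylation (box H/ACA class) of ribosomal and other RNAs. The spliced host RNA is exported, and several host RNAs, GAS5 among them, are known to be kept low by nonsense-mediated decay, which destroys RNAs whose translation stops early. Many snoRNA hosts, like ribosomal protein genes, belong to the 5′ terminal oligopyrimidine (TOP) class, whose RNAs open with a C followed by a run of pyrimidines. GAS5 was first known as a transcript that accumulates in growth-arrested cells, and several SNHG RNAs are known to be raised in tumours.

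In Chrom-seq, a reader domain that binds a histone mark was fused to SunTag (GCN4) epitopes, which recruit the peroxidase APEX2 through a single-chain antibody, so that RNA near the mark was tagged with biotin-aniline. The labels give every library, RNA-seq and ASO libraries included, the same protocol of 48 h of construct expression, 500 µM biotin-aniline for 30 min and 1 mM H2O2 for 1 min. The TAF3 reader binds H3K4me3, a mark of active promoters, and its control carried no reader. TAF3 and control Chrom-seq libraries, 3 of each, were made from HCT116, NIH3T3 and Neuro-2a cells. RNA-seq libraries were made from HEK293T cells that expressed the CBX7 reader of H3K27me3, and from its control, 3 of each, and from HEK293T cells given antisense oligonucleotides (ASOs) against 1 of the noncoding RNAs SETD5-AS1 (3 libraries), LINC00641 (2 libraries) or LINC00662 (3 libraries) or a negative control ASO (3 libraries). The labels name the control of the CBX7 table only as a control, although the study's text sets CBX7-transfected cells against untreated HEK293T cells and calls those replicates independent. The labels name no clones or separate cultures, so that p-values here measure the spread between libraries, part of which may be technical. All libraries were from poly(A)-selected RNA, and the reader constructs were transfected plasmids.

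The libraries held 10012172 to 17558305 counts in Chrom-seq and 8258859 to 15330874 in RNA-seq. Levels are in CPM, the count of a gene scaled to a fixed library size with TMM factors. A gene with no count could therefore still hold up to 0.171 to 0.3 CPM in Chrom-seq and 0.196 to 0.363 CPM in RNA-seq, which covers counting error only. No replicate pair among 34 was identical. Each targeted noncoding RNA was lowest with its own ASO, at log2 fold changes of −3.62 (SETD5-AS1), −4.81 (LINC00641) and −3.00 (LINC00662) against control ASO. SETD5-AS1 was also lower with the LINC00641 ASO (−0.82) and the LINC00662 ASO (−0.83), and LINC00641 with the SETD5-AS1 ASO (−0.62). The markers of each line were present, with 5 of 6 colon epithelium markers at 1 CPM or more in HCT116 and 6 of 6 of their own markers in the other lines. HEK293T libraries also held 5 of 6 colon epithelium markers, summed to between 293 and 660 CPM over the groups against 2770 CPM in HCT116 control. EPCAM, CDH1, KRT8 and KRT18 were lower in every HEK293T group than in HCT116 control, but CDX2 was higher, at 29.5 to 59.9 CPM against 12.5 CPM. HCT116 held 2 of 6 HEK293T markers at 1 CPM or more. PAX2 was higher in HCT116 control (11.5 CPM) than in the HEK293T groups (5.27 to 9.96 CPM), and the others were lower.

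The snoRNA genes within the hosts had no counts. By the gene coordinates of the files, 4 human genes typed as snoRNA lay wholly within a member, and 33 mouse genes did, and all of these were at 0 in every library. Mouse Gas5 held 10 of them (Snord80 as 2 overlapping models), Snhg1 held 8, and Snhg12 held 5 (Snora16a as 2 overlapping models). Snhg16 held 3, Snhg3 and Snhg5 held 2 each, and Snhg6, Snhg8 and Snhg15 held 1 each. The same was true of any gene wholly inside another gene on the same strand, with 7910 of 7910 such human genes and 6553 of 6553 such mouse genes at 0, whereas 50.2% and 41.8% of genes inside a gene of the opposite strand only were at 0. The values below are thus for the host RNAs, and the snoRNAs were not measured.

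**Figure D1:**
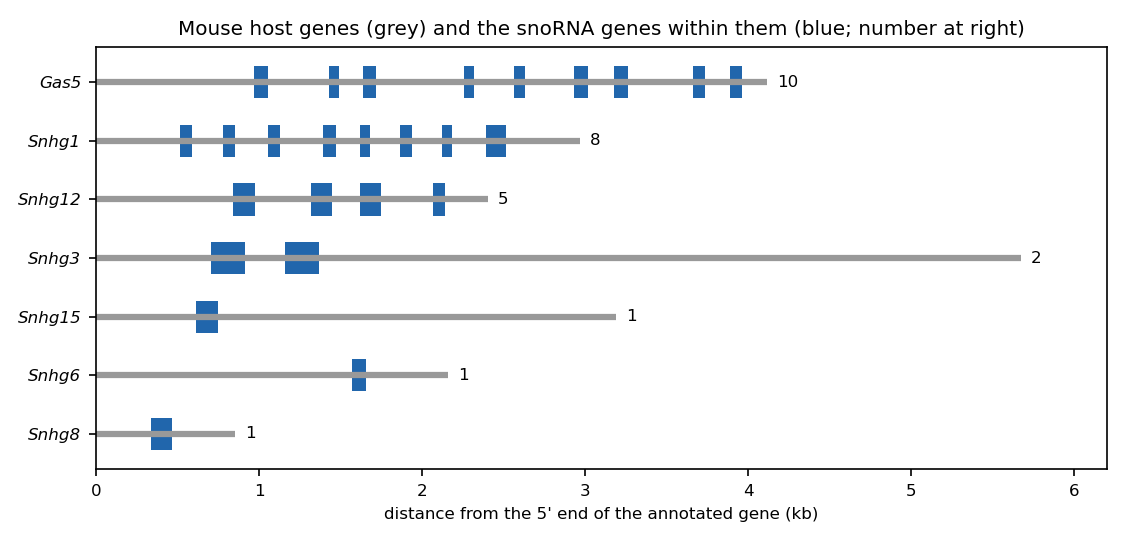
Map of 7 mouse host genes as annotated, drawn from the 5′ end (x axis, kilobases), with each gene as a grey line and the snoRNA genes within it as blue blocks, the number at the right giving their count. Gas5 holds 10 snoRNA genes and Snhg1 holds 8, spaced along the gene, whereas Snhg6, Snhg8 and Snhg15 hold 1 each. In Gas5 and in Snhg12 a pair of overlapping models is drawn as 1 block. The longer Snhg5 and Snhg16 are not drawn.

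SNHG3 was lost to the same layout. The human SNHG3 gene (hg19, chr1:28832492-28837404, plus strand) lies wholly inside RCC1, the exchange factor of the GTPase Ran, and had 0 counts in all 23 human libraries while RCC1 had 59978. In mouse, 98.6% of Snhg3 lay within Rcc1 and Snhg3 had 3 counts over 12 libraries, all in a NIH3T3 control library. No level or comparison can be read for SNHG3 from these tables.

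Box C/D snoRNAs of 3 hosts are shown, since they are the conserved product of these genes. What was counted is RNA over the whole annotated host gene, introns included. The capitals mark the GATG core of box C and the CTGA of box D. SNORD78 lies in GAS5 (GRCh37, chr1:173834760-173834824, minus strand; mouse GRCm38, chr1:161036984-161037049, plus strand), SNORD99 in SNHG12 (chr1:28905261-28905334, minus strand; mouse chr4:132310691-132310764, plus strand) and SNORD1B in SNHG16 (chr17:74557191-74557274, plus strand; mouse chr11:116674148-116674222, plus strand).
SNORD78: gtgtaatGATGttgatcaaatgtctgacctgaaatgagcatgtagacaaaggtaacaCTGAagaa
Snord78: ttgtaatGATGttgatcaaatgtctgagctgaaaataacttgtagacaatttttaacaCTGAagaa
SNORD99: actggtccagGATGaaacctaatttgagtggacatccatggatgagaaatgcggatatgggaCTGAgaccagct
Snord99: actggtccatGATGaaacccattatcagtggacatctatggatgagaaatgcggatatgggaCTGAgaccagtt
SNORD1B: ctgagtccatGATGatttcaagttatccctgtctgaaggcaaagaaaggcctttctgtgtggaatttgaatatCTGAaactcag
Snord1b: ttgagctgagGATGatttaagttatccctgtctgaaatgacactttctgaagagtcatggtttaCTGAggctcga
Both boxes were found in all 6 sequences. Human and mouse sequences were aligned with no penalty on gaps or mismatches, which gives the highest possible number of identical bases. On this measure 57 bases of SNORD78 (65 bases long in human), 68 of SNORD99 (74 bases) and 59 of SNORD1B (84 bases) were identical. How many bases unrelated sequences share on this measure was not tested.

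The RefSeq promoter windows of the hosts differed in the landmarks searched. RefSeq windows (GRCh38.p14) were read for 8 members. SNHG15 had no window, and SNHG6 was left out. GAS5 and SNHG1, which rank high in level, matched neither landmark. Windows of 70 bases are shown for the 4 members that held TATA and for GAS5 and SNHG1. Each runs from 40 bases before the annotated start to 30 bases from it on, on the gene's strand. Capitals mark TATA where its first base lay 35 to 21 bases before the start, and the longest run of a C followed by 4 or more pyrimidines that opened within 10 bases of the start, a layout like that of TOP genes. A shorter run that also met the rule was left in lower case, as in SNHG7. In SNHG7 the marked run is the end of a longer pyrimidine stretch that began more than 10 bases before the start. Such stretches were marked and counted only from their first C within 10 bases of the start, in all promoters alike.
SNHG5 (chr6:85678704-85678773, minus strand): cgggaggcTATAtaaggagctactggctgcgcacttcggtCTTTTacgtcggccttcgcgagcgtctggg
SNHG7 (chr9:136728155-136728224, minus strand): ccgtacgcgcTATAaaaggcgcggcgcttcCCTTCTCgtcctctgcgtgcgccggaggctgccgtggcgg
SNHG8 (chr4:118278722-118278791, plus strand): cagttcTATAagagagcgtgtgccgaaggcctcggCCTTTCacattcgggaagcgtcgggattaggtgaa
SNHG12 (chr1:28581844-28581913, minus strand): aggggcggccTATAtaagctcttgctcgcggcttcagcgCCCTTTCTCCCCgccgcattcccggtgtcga
SNHG1 (chr11:62855856-62855925, minus strand): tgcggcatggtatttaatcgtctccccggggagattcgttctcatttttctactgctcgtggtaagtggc
GAS5 (chr1:173869016-173869085, minus strand): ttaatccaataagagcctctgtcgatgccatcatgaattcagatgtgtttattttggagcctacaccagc
TATA, searched on the gene's strand only, was in the window of 4 of 8 members (SNHG5, SNHG7, SNHG8 and SNHG12), against 5.62% of 35116 RefSeq promoters. The pyrimidine run was in 5 of 8 (the same 4 and SNHG16), against 32.5% of all promoters. The run of SNHG12 was 12 bases long, and a run of at least 8 was in 8.86% of all promoters. These are matches of letters to annotated starts, which were not mapped in the study. Other starts and looser spellings were not searched, so that a member without a match is not shown to lack either landmark.

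Within a line, the comparisons with ASOs gave the widest changes of the host RNAs. Against control ASO, 6 of 9 members with counts were lower with each of the 3 targeting ASOs (3 with the SETD5-AS1 ASO and 5 with the LINC00662 ASO on library sizes alone), and with TMM scaling these were the same 6 genes, GAS5, SNHG1, SNHG8, SNHG12, SNHG15 and SNHG16. Here a gene counts as called when edgeR gave it an adjusted p below 0.05 together with a change of 0.75 or more on the log2 scale. Of all genes tested, the shares called lower were 11.5% (SETD5-AS1), 11.5% (LINC00641) and 13.3% (LINC00662). No member was called higher, against 12.9%, 11.0% and 11.6% of all genes, with 7, 8 and 8 members at an unadjusted p under 0.05, all of them lower, against 57.8%, 55.3% and 58.8% of all genes at that p. DESeq2 also gave 0 members higher and 6 lower in each, against 11.4%, 9.45% and 10.7% of genes higher and 11.1%, 10.2% and 12.3% lower. The 3 comparisons share the 3 control ASO libraries, so that their values are set side by side and are not independent of each other. Statements below that groups did not overlap describe single genes. The share of all genes that separated in such a way was counted only on the scale over both HEK293T tables.

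GAS5, whose mouse gene holds the most snoRNA genes of the members, was lower with each of the 3 targeting ASOs than with control ASO. Its levels were 188, 193 and 212 CPM with control ASO, 62.6, 53.5 and 84.4 CPM with the SETD5-AS1 ASO, 59.9 and 63.5 CPM with the LINC00641 ASO and 63.5, 54.7 and 55.1 CPM with the LINC00662 ASO. All 8 targeting libraries lay far below the 3 control ASO libraries. The log2 fold changes were −1.56 (SE 0.121, edgeR adjusted p = 9.42e-09), −1.66 (SE 0.0907, edgeR adjusted p = 2.43e-11) and −1.71 (SE 0.0774, edgeR adjusted p = 1.44e-15). These equal levels 2.95-fold, 3.17-fold and 3.26-fold lower.

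SNHG12, a host of SNORA and SNORD genes, had 28.9, 26.4 and 32.2 CPM with control ASO. It was at 12.3, 10.9 and 12.5 CPM with the SETD5-AS1 ASO, 8.24 and 9.13 CPM with the LINC00641 ASO and 10.3, 11.0 and 10.8 CPM with the LINC00662 ASO, with no overlap with the controls. The log2 fold changes were −1.29 (SE 0.115), −1.73 (SE 0.136) and −1.38 (SE 0.114), with edgeR adjusted p of 4.78e-08, 2.83e-09 and 9.45e-11. With the LINC00641 ASO the change of SNHG12 was the largest of any member in that comparison.

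SNHG1, the host of a series of SNORD genes, had 131, 136 and 157 CPM with control ASO. The targeting libraries lay at 68.7, 63.0 and 64.0 CPM (SETD5-AS1), 62.1 and 79.1 CPM (LINC00641) and 83.2, 77.6 and 75.6 CPM (LINC00662). All were below the controls, at log2 fold changes of −1.11 (SE 0.0877), −0.98 (SE 0.107) and −0.77 (SE 0.0774), with edgeR adjusted p of 1.16e-08, 2.36e-07 and 3.26e-09. The call with the LINC00662 ASO lay close to the fold threshold and was lost without control ASO replicate 3 (−0.70) or LINC00662 ASO replicate 3 (−0.74).

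SNHG8, the shortest of the members, was at 26.8, 30.6 and 24.5 CPM with control ASO and at 9.18 to 17.1 CPM over the 8 targeting libraries. Its log2 fold changes were −0.88 (SE 0.12), −1.07 (SE 0.130) and −1.32 (SE 0.124), with edgeR adjusted p of 7.45e-06, 9.45e-07 and 1.07e-09 for the SETD5-AS1, LINC00641 and LINC00662 ASOs. SNHG15 was at 75.7, 71.1 and 80.3 CPM with control ASO and at 24.5 to 47.8 CPM with the targeting ASOs. Its log2 fold changes were −0.84 (SE 0.0972), −1.31 (SE 0.125) and −0.94 (SE 0.0833), with edgeR adjusted p of 1.02e-06, 3.93e-08 and 3.57e-10. Neither gene overlapped between the control and the targeting libraries.

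SNHG16 was at 130, 138 and 134 CPM with control ASO and at 66.3 to 97.3 CPM with the targeting ASOs, again without overlap. Its log2 fold changes were −0.75 (SE 0.108), −0.87 (SE 0.0921) and −0.85 (SE 0.0693), with edgeR adjusted p of 1.30e-05, 1.67e-07 and 8.20e-11. With the SETD5-AS1 ASO, SNHG16 sat on the fold threshold, and the call was lost without SETD5-AS1 ASO replicate 1 (−0.65), SETD5-AS1 ASO replicate 2 (−0.70) or control ASO replicate 2 (−0.74), and with no filter on low counts. Without SETD5-AS1 ASO replicate 2 the call of SNHG15 was lost too, at −0.75. The call of SNHG16 with the LINC00641 ASO was lost without LINC00641 ASO replicate 2 (−0.74), which leaves 1 library whose spread is taken from the control libraries.

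The remaining 3 members moved less. SNHG5 was at 117, 120 and 121 CPM with control ASO and 81.4 to 105 CPM with the targeting ASOs, with log2 fold changes of −0.32, −0.47 and −0.45 (SE 0.0827, 0.0835 and 0.0688) and edgeR adjusted p of 0.00327, 0.000101 and 3.42e-06, under the fold threshold. SNHG6 was at −0.13 (95% interval −0.31 to 0.04, edgeR adjusted p = 0.195), −0.29 (edgeR adjusted p = 0.0145) and −0.46 (edgeR adjusted p = 2.79e-05). SNHG7 was at −0.16, −0.16 and −0.18, with edgeR adjusted p of 0.194, 0.209 and 0.0992, and its intervals reached from −0.377 to 0.055 over the 3 comparisons. For SNHG7, 2685 bases of the gene (39.4%) overlap FAM69B on the opposite strand.

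The number called with the SETD5-AS1 ASO depended on how libraries were scaled. With library sizes alone in place of TMM factors, 3 members were called (GAS5, SNHG1 and SNHG12), and SNHG8, SNHG15 and SNHG16 were at −0.74, −0.71 and −0.61, while the median of all genes moved by 0.138 and the share of calls that were higher went from 52.8% to 66.5%. All 27 member values with the 3 ASOs were below 0 with TMM and with DESeq2 size factors, and 26 of 27 with library sizes alone, where SNHG6 with the SETD5-AS1 ASO was at 0.006. The median log2 fold change of the members was −0.845, −0.984 and −0.847 for the SETD5-AS1, LINC00641 and LINC00662 ASOs, beside 0.028, 0.004 and 0.001 for all genes tested. The colon epithelium markers, summed to 660 CPM with control ASO, were at 293 to 434 CPM with the targeting ASOs. KRT8, the largest part of the sum, was at 447 CPM with control ASO against 164 to 272 CPM, and KRT18 and CDX2 were also lower. CDH1 was higher with each targeting ASO (10.7 to 16.2 CPM against 7.69 CPM), as was EPCAM with the LINC00662 ASO (21.7 CPM against 16.4 CPM). The part of these markers in the host values was not tested. In bulk RNA, fewer cells with a transcript and less of it per cell cannot be told apart.

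**Figure D2:**
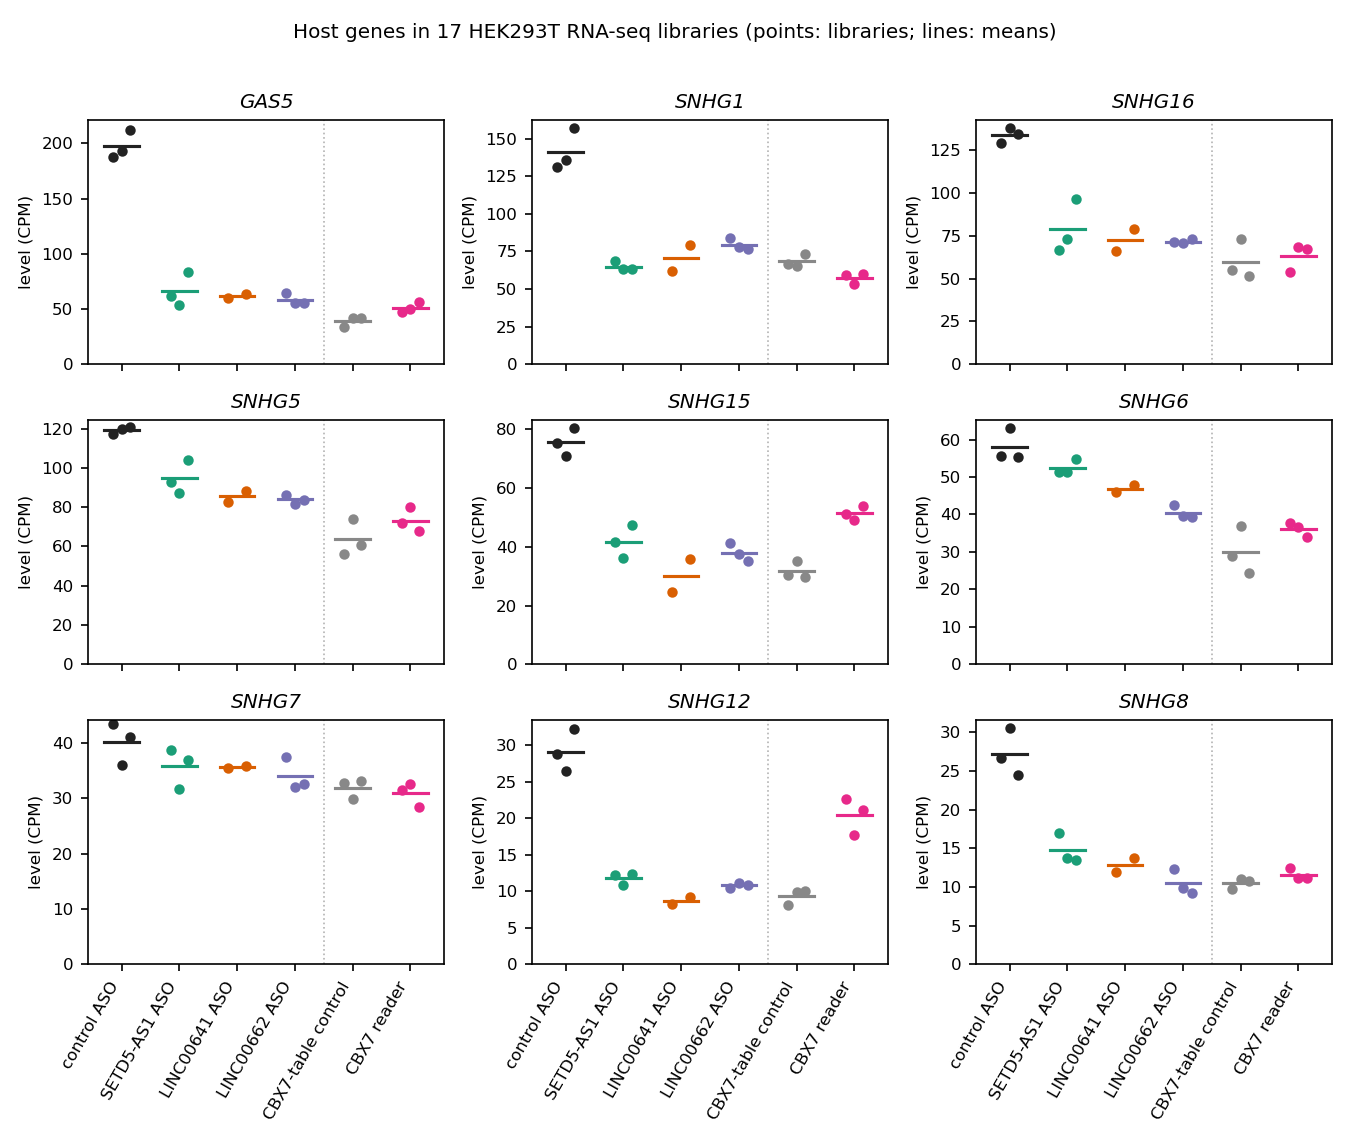
Levels of 9 host genes in 17 HEK293T RNA-seq libraries (y axis, CPM scaled over both tables from 0; points, libraries; lines, group means). Control ASO lay above the other 14 libraries for 8 of 9 genes, SNHG7 being the exception. The dotted line parts the ASO table from the CBX7 table.

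The targeting ASOs were also compared with each other, which leaves the control ASO libraries out. No member was called by edgeR or DESeq2 in any of the 3 comparisons, against 11.1% of genes between the LINC00662 and SETD5-AS1 ASOs, 8.41% between the LINC00662 and LINC00641 ASOs and 1.72% between the SETD5-AS1 and LINC00641 ASOs by edgeR, and 9.90%, 6.95% and 1.42% by DESeq2. At an unadjusted p under 0.05 there were 4, 2 and 2 members of 9, against 42%, 35.6% and 20.9% of all genes. Between the LINC00662 and SETD5-AS1 ASOs, SNHG8 was at −0.50 (SE 0.142, edgeR adjusted p = 0.0114), SNHG6 at −0.39 (SE 0.0776, edgeR adjusted p = 0.000826) and SNHG1 at 0.28 (SE 0.073, edgeR adjusted p = 0.00723), all smaller than the fold threshold. GAS5 differed by −0.21 (95% interval −0.46 to 0.05), −0.09 (−0.27 to 0.09) and 0.12 (−0.19 to 0.42) in the 3 comparisons in the order given. SNHG15 between the SETD5-AS1 and LINC00641 ASOs was at 0.47 (edgeR adjusted p = 0.0765) and was called at 0.78 without LINC00641 ASO replicate 3. The genes called between these ASOs fell from 316 to 177 without LINC00641 ASO replicate 2 and to 198 without replicate 3. Between these ASOs the share of calls over all genes that were higher went from 60.4% to 71.8% with library sizes alone.

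The 6 HEK293T libraries of the CBX7 table give a second reading of the levels. On a scale set over both tables, chosen after the data were seen, every control ASO library lay above the 14 other HEK293T libraries for 8 of 9 members, against 16.0% of 18476 genes. GAS5 was at 188 to 212 CPM with control ASO, at 53.6 to 83.5 CPM (median 61.0) in the 8 targeting libraries, at 33.9 to 41.5 CPM in the control of the CBX7 table and at 47.3 to 56.2 CPM with CBX7. GAS5 was thus lowest in the control of the CBX7 table, and no group overlapped control ASO.

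SNHG1 showed the same split, with 131 to 157 CPM for control ASO, 62.1 to 84.1 CPM for the targeting ASOs, 65.3 to 73.4 CPM for the control of the CBX7 table and 53.4 to 59.9 CPM for CBX7. SNHG12 was at 26.4 to 32.2, 8.24 to 12.4, 8.06 to 10.1 and 17.7 to 22.6 CPM in the same order. For 5 of 9 members (GAS5, SNHG5, SNHG6, SNHG7 and SNHG16) the mean of the control of the CBX7 table lay below the mean of each targeting ASO. The share of all genes in this order was not counted, so that the count describes these genes only. Control ASO and the other control come from separate tables, so table and treatment cannot be told apart and no test was made between them.

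With the CBX7 reader, 1 of 9 members was called, higher, against 4.17% of 18204 genes called higher and 3.48% lower. SNHG12 was at 22.6, 17.6 and 21.3 CPM with CBX7 and at 8.05, 9.97 and 10 CPM in its control, a log2 fold change of 1.12 (SE 0.139, edgeR adjusted p = 3.33e-05), and the groups did not overlap. SNHG15 was at 51.3, 48.9 and 54.3 CPM against 30.3, 35.5 and 29.5 CPM, a log2 fold change of 0.70 (SE 0.0947, edgeR adjusted p = 6.84e-05) just under the threshold, and was called at 0.79 without control replicate 2. The control library that decides this is the highest of its group for SNHG15.

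Among the other members, GAS5 was at 47.5, 49.9 and 56.5 CPM against 33.9, 42.0 and 41.2 CPM (0.39, SE 0.101, edgeR adjusted p = 0.00781), without overlap. SNHG1 pointed the other way, with 59.6, 53.1 and 60.3 CPM against 66.5, 66.1 and 72.7 CPM (−0.25, SE 0.085, edgeR adjusted p = 0.0367). SNHG5, SNHG6, SNHG7, SNHG8 and SNHG16 lay between −0.04 and 0.27, with edgeR adjusted p from 0.143 to 0.766. The CBX7 gene itself was at 1.34 in this comparison.

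**Figure D3:**
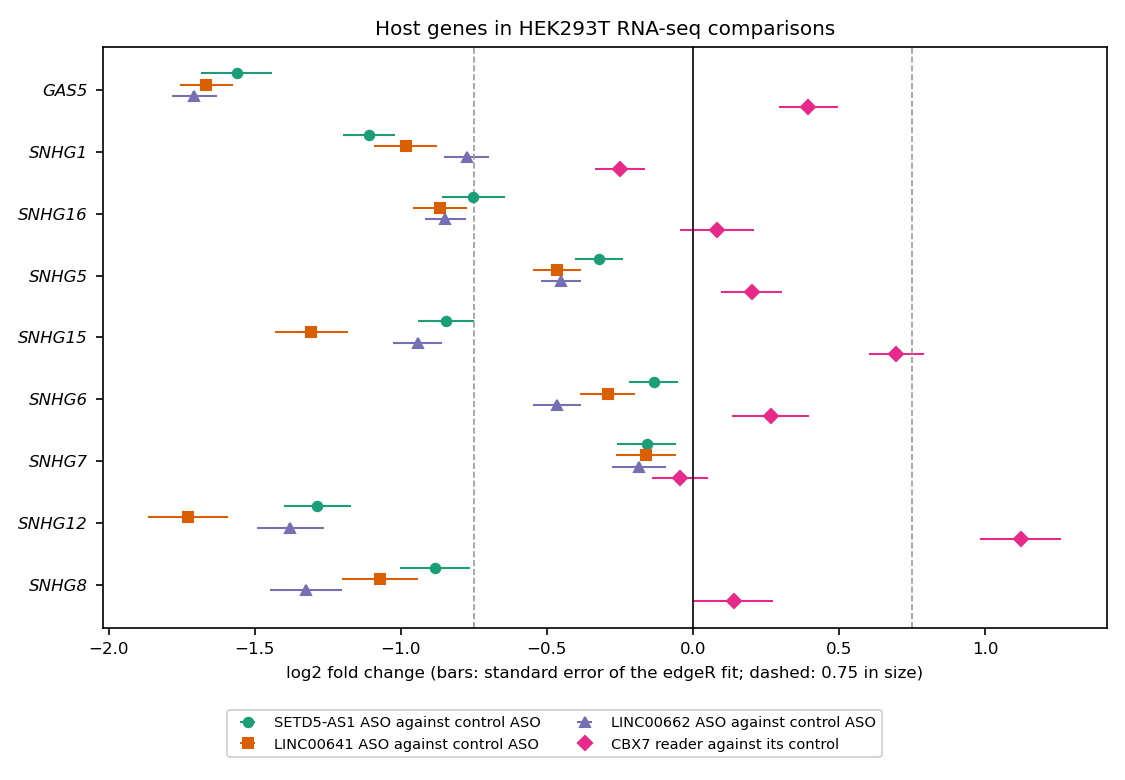
Log2 fold changes of 9 host genes (x axis) in the 3 ASO comparisons and with the CBX7 reader, as points with bars of 1 standard error of the edgeR fit, and dashed lines at 0.75 in size. All ASO values lie left of 0 with TMM scaling (on library sizes alone SNHG6 with the SETD5-AS1 ASO is at 0.006), with GAS5 at −1.56 to −1.71, and SNHG12 lies at 1.12 with CBX7.

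Genes around the hosts were read from lists of 18 snoRNP proteins and assembly factors, 10 nonsense-mediated decay factors, 9 other noncoding hosts and 20 protein-coding hosts in the human table. With the SETD5-AS1, LINC00641 and LINC00662 ASOs, 3, 4 and 6 of 18 snoRNP genes tested were called lower, against 11.5%, 11.5% and 13.3% of all genes, with no gene higher by edgeR or DESeq2 (14, 14 and 13 passed an unadjusted p under 0.05). NOP56, a core protein of box C/D particles whose own introns hold snoRNAs, was at −1.24, −1.28 and −1.07. NUFIP1, an assembly factor, was at −1.12, −1.19 and −1.08. ZNHIT6 and SHQ1, assembly factors of the box C/D and H/ACA particles, were at −1.47 and −1.38 with the LINC00662 ASO. The medians of the list were −0.378, −0.344 and −0.134. Between the ASOs, ZNHIT6 (−0.99) and SHQ1 (−0.85) were lower with LINC00662 than with SETD5-AS1, and ZNHIT6 (−1.03) lower than with LINC00641.

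Of 9 decay factors tested, 1, 2 and 3 were called higher and none lower by edgeR, against 12.9%, 11.0% and 11.6% of all genes higher, so that the count with the SETD5-AS1 ASO was at the background. DESeq2 called 1 lower with the SETD5-AS1 ASO, and 6, 7 and 7 passed an unadjusted p under 0.05, against 57.8%, 55.3% and 58.8% of all genes. SMG6, the endonuclease of the decay pathway, was at 0.92, 0.97 and 0.82. The medians were 0.133, 0.040 and 0.334. Of the other noncoding hosts tested, 3 of 8, 3 of 7 and 4 of 7 were called lower, with SNHG11 at −2.52, −2.46 and −2.55 and SNHG10 at −1.04, −0.88 and −0.95. Of 19 protein-coding hosts tested, 4 were called lower in each comparison, against the same 11.5%, 11.5% and 13.3% of all genes, and none higher by edgeR or DESeq2 (14, 13 and 18 passed an unadjusted p under 0.05), among them EIF4A2, a translation initiation helicase, at −1.02, −0.88 and −0.90. The medians were −0.602, −0.731 and −0.807 for the noncoding hosts and −0.241, −0.167 and −0.285 for the protein-coding hosts, all below the medians of all genes given above.

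With CBX7, ZFAS1, a noncoding host, was called higher at 0.88 (SE 0.0966, edgeR adjusted p = 1.27e-05). No other gene of the 4 lists was called by edgeR or DESeq2. At an unadjusted p under 0.05 there were 9 of 18 snoRNP genes, 4 of 9 decay factors, 1 of 7 noncoding hosts and 7 of 19 protein-coding hosts, against 39.7% of all genes.

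In HCT116 Chrom-seq with the TAF3 reader, 1 of 9 members was called, lower, against 3.28% of 18731 genes called lower and 3.34% higher. SNHG8 was at 39.4, 44.4 and 40.9 CPM in the control and at 25.6, 20.3 and 26.3 CPM with TAF3, a log2 fold change of −0.79 (SE 0.0894, edgeR adjusted p = 1.40e-09). The groups did not overlap, but the call lay close to the fold threshold and was lost without control replicate 2 (−0.74) or TAF3 replicate 2 (−0.68).

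Another 4 members were higher with TAF3 under the fold threshold. SNHG7 was at 53.5, 52.3 and 50.4 CPM against 37.3, 29.9 and 30.5 CPM (0.68, SE 0.0807, edgeR adjusted p = 4.25e-09), and was called at 0.79 without control replicate 1. SNHG16 was at 131, 138 and 142 CPM against 93.0, 104 and 102 CPM (0.46, SE 0.0608, edgeR adjusted p = 5.14e-08). SNHG12 was at 0.43 (SE 0.0717, edgeR adjusted p = 4.40e-06) and SNHG15 at 0.38 (SE 0.0812, edgeR adjusted p = 0.000222). In each of these genes the 3 TAF3 libraries lay above the 3 control libraries, but how many of all genes separated in this way was not counted. At any fold change 34.9% of all genes passed the adjusted p.

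The host RNAs of highest level did not pass the test. SNHG1 was at 209, 187 and 197 CPM against 177, 188 and 199 CPM (0.07, 95% interval −0.04 to 0.19). GAS5 was at 145, 126 and 140 CPM against 137, 136 and 145 CPM (−0.02, −0.14 to 0.10), and SNHG6 at 0.02 (−0.10 to 0.15). SNHG5 was at 0.12 (−0.03 to 0.28). Of the lists, HSPA8, the constitutive HSC70 chaperone and a snoRNA host, was called higher at 1.58 (SE 0.0551, edgeR adjusted p = 5.57e-26), and no other gene was called by edgeR or DESeq2. The snoRNP list had 16 of 18 genes at an unadjusted p under 0.05 and a median of 0.423, the decay factors 5 of 9 (median −0.008), the noncoding hosts 3 of 8 (median 0.235) and the protein-coding hosts 17 of 19 (median 0.205), beside 43.1% of all genes at that p and a median of −0.007 over all genes.

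**Figure D4:**
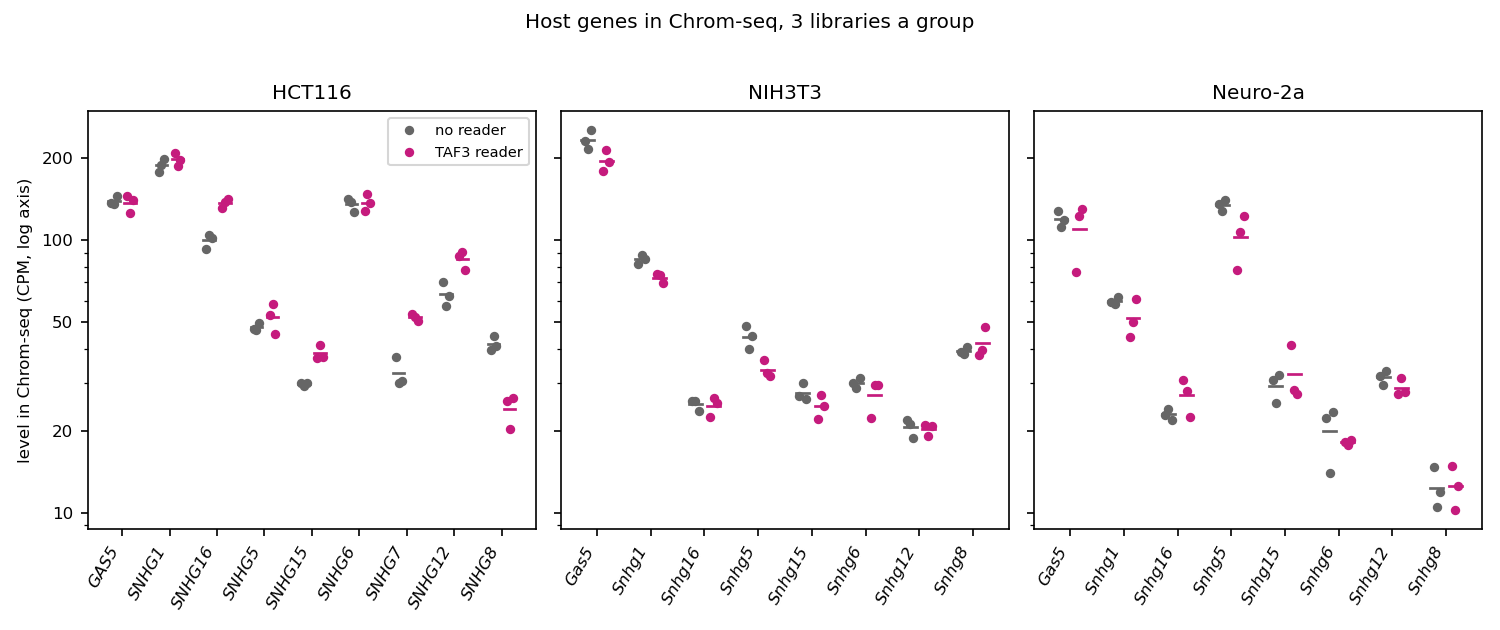
Levels of the host genes in Chrom-seq of HCT116, NIH3T3 and Neuro-2a (y axis, CPM on a log axis; points, libraries; lines, group means), with grey for no reader and magenta for the TAF3 reader. SNHG8 drops in HCT116 from 39.4 to 44.4 CPM down to 20.3 to 26.3 CPM, and Snhg5 lies at 128 to 140 CPM in Neuro-2a control against 39.8 to 48.2 CPM in NIH3T3 control.

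In NIH3T3, no member of 8 tested was called by edgeR or DESeq2 with TAF3, against 11.1% of 19220 genes (10.7% higher and 0.375% lower) by edgeR and 10.9% by DESeq2, and 3 were at an unadjusted p under 0.05, as were 33.9% of all genes. Snhg5 was at 36.2, 32.6 and 31.7 CPM against 48.2, 39.8 and 44.5 CPM (−0.40, SE 0.0969, edgeR adjusted p = 0.00333). Gas5 was at 179, 214 and 193 CPM against 230, 216 and 253 CPM (−0.26, SE 0.067, edgeR adjusted p = 0.00585), and Snhg1 at 74.8, 74.3 and 69.6 CPM against 81.9, 87.8 and 85.3 CPM (−0.22, SE 0.0687, edgeR adjusted p = 0.0202). In all of these the TAF3 libraries lay below the control libraries, but how many of all genes separated in this way was not counted. The other 5 lay between −0.16 and 0.09, with edgeR adjusted p from 0.333 to 0.932.

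In Neuro-2a, no member of 8 was called by edgeR or DESeq2, against 1.03% of 17006 genes by edgeR and 2.36% by DESeq2, and 1 was at an unadjusted p under 0.05, as were 16.2% of all genes. Snhg5 was at 78.0, 107 and 123 CPM with TAF3 against 136, 128 and 140 CPM (−0.39, SE 0.151, edgeR adjusted p = 0.243). The library TAF3 replicate 1 stood apart for Gas5, at 76.4 CPM against 123 and 130 CPM in the other TAF3 libraries. Snhg1 was lowest there too, at 44.1 against 50.1 and 60.7 CPM, but did not stand apart. Without TAF3 replicate 1, Gas5 went from −0.12 to 0.08, no member was called, and 620 genes were called in place of 176. Leaving out any other library gave 41 to 106 genes and no member. The other members lay between −0.21 and 0.24.

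Whether the TAF3 reader acted differently in the mouse lines was asked with an interaction over 12 libraries. No member of 8 was called by edgeR or DESeq2, against 3.05% of 19509 genes by edgeR and 4.36% by DESeq2, and 0 were at an unadjusted p under 0.05, against 13.8% of all genes. The differences (Neuro-2a minus NIH3T3) ran from −0.12 for Snhg12 (SE 0.176) to 0.29 for Snhg15 (SE 0.221), with edgeR adjusted p of 0.634 or more. Neither mouse line had a gene of the 4 lists called with TAF3 by edgeR or DESeq2. At an unadjusted p under 0.05 there were 5 of 18 snoRNP genes, 5 of 10 decay factors, 3 of 9 noncoding hosts and 9 of 20 protein-coding hosts in NIH3T3 (33.9% of all genes), and 2, 1, 1 and 2 genes in Neuro-2a (16.2% of all genes).

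The mouse lines themselves differed in their host RNAs. Between the reader-free controls, 3 of 8 members were called, 1 higher and 2 lower in Neuro-2a, against 25.2% of 18433 genes higher and 26.5% lower, so that the share of members called was under the background. Snhg5 was at 136, 128 and 140 CPM in Neuro-2a and 48.2, 39.8 and 44.5 CPM in NIH3T3, a log2 fold change of 1.5 (SE 0.0754, edgeR adjusted p = 5.27e-15). Gas5 was at 128, 112 and 119 CPM against 230, 216 and 253 CPM (−1.06, SE 0.066, edgeR adjusted p = 3.74e-13). Snhg8 was at 14.7, 10.5 and 11.9 CPM against 38.9, 38.3 and 40.7 CPM (−1.76, SE 0.126, edgeR adjusted p = 5.95e-12). None of these overlapped between the lines, and line and deposited table cannot be told apart.

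Of the other mouse members, Snhg6 was at −0.68 (SE 0.144, edgeR adjusted p = 0.000178) and was called without Neuro-2a control replicate 1 (−0.78) or replicate 3 (−0.82). Snhg1 was at −0.61 (edgeR adjusted p = 3.79e-08) and Snhg12 at 0.51 (edgeR adjusted p = 0.000368), both under the fold threshold. Snhg15 was at −0.01 and Snhg16 at −0.23, with edgeR adjusted p of 0.917 and 0.0805. Snhg16 overlaps St6galnac2 on the opposite strand over 72.5% of its length. Of the lists, 2 of 18 snoRNP genes were called higher in Neuro-2a, Snu13 (1.22) and Rpap3 (0.93), and of 9 noncoding hosts 2 were higher and 3 lower. Of 20 protein-coding hosts 1 was higher and 5 lower. Beside these counts, 25.2% of all genes were called higher and 26.5% lower. DESeq2 also called 1 snoRNP gene lower. Of 10 decay factors 0 were called by edgeR or DESeq2, with 9 at an unadjusted p under 0.05, against 74.3% of all genes.

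Set per kilobase of annotated gene, introns included, the hosts could be ranked within a line. In the HCT116 control, SNHG1 was first at 47.9 ± 2.72 CPM per kilobase (SD, n = 3), then SNHG8 at 37.3 ± 2.32, SNHG6 at 28.7 ± 1.66, GAS5 at 27.9 ± 1.02, SNHG12 at 14.2 ± 1.49, SNHG16 at 13.1 ± 0.760, SNHG15 at 7.53 ± 0.111, SNHG7 at 4.77 ± 0.601 and SNHG5 at 2.70 ± 0.0936. SNHG6 and GAS5 overlapped, as did SNHG12 and SNHG16, and the other neighbours did not. The annotated span of SNHG5 is 17742 bases and that of SNHG8 is 1115 bases, which sets part of this order.

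In HEK293T with control ASO, GAS5 (39.7 ± 2.47 CPM per kilobase, SD, n = 3) and SNHG1 (36.0 ± 3.45) led and overlapped. SNHG8 followed at 24.5 ± 2.74, SNHG15 at 19.2 ± 1.17, SNHG16 at 17.7 ± 0.565 and SNHG6 at 12.3 ± 0.954, SNHG15 and SNHG16 overlapping. SNHG5 (6.72 ± 0.109), SNHG12 (6.56 ± 0.648) and SNHG7 (5.91 ± 0.563) were last, SNHG5 and SNHG12 overlapping and SNHG12 and SNHG7 overlapping. In the control of the CBX7 table, SNHG1 led at 17.4 ± 0.936 and SNHG12 was last at 2.1 ± 0.253, and GAS5 was at 7.83 ± 0.901, overlapping SNHG16 at 7.90 ± 1.61.

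In the mouse controls, Gas5 led in both lines, at 56.6 ± 4.64 CPM per kilobase (SD, n = 3) in NIH3T3 and 29.0 ± 1.92 in Neuro-2a. NIH3T3 had Snhg8 next at 46.1 ± 1.45 and Snhg1 at 28.6 ± 0.993, and Neuro-2a had Snhg1 at 20.2 ± 0.619 and Snhg8 at 14.5 ± 2.48, which overlapped Snhg12 at 13.1 ± 0.8. Snhg6 (13.8 ± 0.581 in NIH3T3, 9.21 ± 2.37 in Neuro-2a) and Snhg15 (8.64 ± 0.642 and 9.17 ± 1.12) came after, and these 2 overlapped in Neuro-2a. Snhg12 was at 8.57 ± 0.669 in NIH3T3, overlapping Snhg15. Snhg16 (1.86 ± 0.0880 and 1.70 ± 0.0794) and Snhg5 (1.56 ± 0.149 and 4.75 ± 0.219) were lowest, with Snhg5 above Snhg16 in Neuro-2a and below it in NIH3T3.

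Some hosts share bases with a gene of the opposite strand. In the human files, SNHG16 overlaps ST6GALNAC2 over 1639 bases (21.6%), GAS5 overlaps ZBTB37 over 801 bases (16.1%) and SNHG6 overlaps MCMDC2 over 365 bases (7.7%). SNHG1, SNHG5, SNHG8 and SNHG15 overlap no annotated gene. Genes lying wholly inside a gene of the opposite strand were not emptied in these counts, with 12.3% of them in human and 12.8% in mouse above 100 counts, whereas all of those inside a gene of the same strand were at 0. Overlapping reads were thus assigned by strand. How far the reads keep the strand of their RNA was not tested.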

How the data were processed

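The whole-number counts per gene that the authors deposited were used. Per the labels and the study's methods, reads were trimmed with fastp 0.23.1, aligned to hg19 or mm10 by HISAT2 2.1.0, and assigned to GENCODE genes by featureCounts 2.0.1. Counts were tested here with edgeR 4.0.16 (quasi-likelihood test, TMM factors, genes with a summed count over 3 per library, Benjamini-Hochberg over all genes tested), each pair of groups alone. A call needed an adjusted p below 0.05 with a change of 0.75 or more on the log2 scale. The fit was tested on simulated data. CPM used the TMM factors of the library's own table, apart from the scale over both HEK293T tables, chosen after the data were seen. Alternatives were DESeq2 1.42.0, other scalings and filters, a replicate block and leaving out each library. The depth, 8258859 to 17558305 counts, sets the precision for low genes.

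Groups and replicate numbers came from the titles. Same-numbered libraries deviated together with CBX7 (r of 0.131 to 0.331) and between the LINC00662 and SETD5-AS1 ASOs (r of 0.106 to 0.178), every pair above 0.1. The values printed for these comparisons are still from the unpaired fit. The fit with the replicate number as a block was run as an alternative. The members and lists were chosen with earlier results of these data known. All members could be named, and of each other list at most the 3 called genes with the largest change in a comparison. The HEK293T Chrom-seq table (12 libraries) was not used here, so 3 planned comparisons were not run. Sequences are from RefSeq (GRCh38.p14) or the genome of the files' build.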

Additional observations from a re-analysis of the deposited data

How the results depend on the processing

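Of 153 recomputed numbers of members called, 147 stayed within 1.5 times the main number. With library sizes alone, 3 members were called lower with the SETD5-AS1 ASO in place of 6, and the cause was not tested. Leaving out each library in turn gave 0 to 2 members called in HCT116 (main 1, lost without control replicate 2 or TAF3 replicate 2), 1 to 2 with CBX7 (main 1), 4 to 6, 5 to 6 and 5 to 6 with the SETD5-AS1, LINC00641 and LINC00662 ASOs (main 6 each), 0 to 1 between the SETD5-AS1 and LINC00641 ASOs (main 0) and 3 to 4 between the mouse lines (main 3). It gave 0 in NIH3T3, in Neuro-2a, in the interaction and in the other comparisons between ASOs. For these leave-outs the alternative itself has fewer libraries. Of 1323 recomputed log2 fold changes of members, 1239 kept their direction and side of the threshold, 14 fell below it and 5 passed it. The other 65 were near 0 and changed sign, with none above 0.151 in size or under an adjusted p of 0.5. The fit with the replicate number as a block changed the number of members called in 0 of 12 comparisons and the call of 0 of 104 member values, SNHG12 with CBX7 staying at 1.12 in the paired fit. Leaving out either LINC00641 ASO library leaves 1, whose spread is taken from the other group. Apart from CBX7 and LINC00662 against SETD5-AS1 ASO, where they deviated together, same-numbered libraries correlated at −0.168 to 0.162, with no comparison of 3 pairs above 0.1 in every pair. SNHG3 could not be compared at any setting. In Neuro-2a, DESeq2 called 402 genes against 176 by edgeR, 516 were called with no filter on low counts, and leaving out each library gave 41 to 620 (620 without TAF3 replicate 1).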
